A study of Arabidopsis thaliana with 2 samples.

Results

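The nuclear genes for photosystem subunits and photosynthetic electron transport were compared between 2 leaf libraries of Arabidopsis thaliana, 1 from wild type plants and 1 from the line Atclb1-1. The 41 genes were taken from the 33557 loci of the deposited expression table by a list of locus identifiers, which was drawn up by function with earlier results of these data known. They comprise 11 genes for photosystem II (PSII) subunits, 12 for photosystem I (PSI) subunits, 1 thylakoid curvature gene, 8 for electron carriers, 2 for ATP synthase subunits, 3 for cyclic electron flow and 4 for PSII assembly. Both libraries came from leaves of ecotype Columbia at an age of 2 weeks, grown at 23 °C with 16 h of light. Atclb1-1 is a homozygous T-DNA line of AtCLB (AT3G61050), a gene for a calcium-dependent lipid-binding protein, and is described as a loss-of-function mutant. The other library is labelled wild type, with no insertion or treatment named. The sources used here state neither the number of plants in a library nor the hour of harvest. With 1 library per genotype there was no replicate check, and no difference was tested or given a p-value.

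In oxygenic photosynthesis PSII takes electrons from water and passes them through plastoquinone to the cytochrome b6f complex. Plastocyanin carries them on to PSI, and ferredoxin and ferredoxin-NADP+ oxidoreductase (FNR) deliver them to NADP+. The proton gradient built up along the way drives the ATP synthase, and cyclic flow around PSI adds protons without making NADPH. The reaction centre proteins are encoded in the plastid, whereas the genes described here lie in the nucleus and their products are imported. In leaves many of these, though not all, are among the most abundant messenger RNAs of the mesophyll.

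Levels are in FPKM, which counts fragments relative to the length of the transcript and to the size of the library, so they can be set side by side between genes. A difference is log2((Atclb1-1 FPKM + 1)/(wild type FPKM + 1)), negative where the Atclb1-1 library was lower, and folds given for single genes are plain ratios of FPKM. A gene is counted as lower or higher from a 2-fold difference on that log2 scale. AtCLB itself stood at 39.2 FPKM in wild type and 13.5 in the Atclb1-1 library, 34.5% of the wild type value. The sources used here do not state where the insertion lies. The steps between low values put the Atclb1-1 library at 1.21 times the depth of wild type, and 21074 and 21841 loci lay above 0.

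The proximal promoters of 4 genes are printed to show what lies just upstream of genes that differed by unlike amounts. FNR2 differed most between the libraries, PSBQ2 was the PSII gene with the most motifs, PETC lay at the 2-fold line, and PGRL1A had nearly the same level in both. Each run is the 250 bases before the annotated gene start in TAIR10.1 (RefSeq), read 5′ to 3′ on the strand of the gene, and none of the 4 windows overlaps another annotated gene. FNR2 lies at chr1:6942375-6942624 on the plus strand, PSBQ2 at chr4:2673244-2673493 on the minus strand, PETC at chr4:1439896-1440145 on the plus strand and PGRL1A at chr4:12006736-12006985 on the plus strand. Capitals mark the motifs searched for, in either orientation: the G-box CACGTG, the element CCAATC, the I-box core GATAAG, the evening element AAAATATCT, the CCA1-binding site AAAAATCT and the TATA box core TATAAA.
FNR2: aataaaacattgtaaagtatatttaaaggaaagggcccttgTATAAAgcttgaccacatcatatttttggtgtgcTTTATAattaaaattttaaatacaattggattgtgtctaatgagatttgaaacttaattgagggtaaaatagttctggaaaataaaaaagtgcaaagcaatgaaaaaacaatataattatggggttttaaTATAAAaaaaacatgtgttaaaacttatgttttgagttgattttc
PSBQ2: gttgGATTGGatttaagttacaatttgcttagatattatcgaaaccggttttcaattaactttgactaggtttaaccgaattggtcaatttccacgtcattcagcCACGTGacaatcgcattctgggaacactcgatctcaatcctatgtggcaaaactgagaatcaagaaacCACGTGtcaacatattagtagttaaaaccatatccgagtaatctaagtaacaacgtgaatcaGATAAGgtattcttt
PETC: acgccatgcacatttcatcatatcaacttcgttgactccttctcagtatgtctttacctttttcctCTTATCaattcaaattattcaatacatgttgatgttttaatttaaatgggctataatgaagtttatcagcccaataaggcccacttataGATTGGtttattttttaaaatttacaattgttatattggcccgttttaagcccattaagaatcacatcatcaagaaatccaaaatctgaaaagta
PGRL1A: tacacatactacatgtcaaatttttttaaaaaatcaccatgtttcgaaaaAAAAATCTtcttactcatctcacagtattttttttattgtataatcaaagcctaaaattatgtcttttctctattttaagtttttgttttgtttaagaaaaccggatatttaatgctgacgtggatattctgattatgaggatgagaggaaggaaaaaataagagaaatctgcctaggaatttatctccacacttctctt

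All 41 genes reached 1 FPKM in at least 1 library, and 37 were lower in the Atclb1-1 library by some amount, of which PGRL1A alone changed sign under another scaling. Of the 41, 26 were at least 2-fold lower and 0 at least 2-fold higher. Among the 18171 loci that reached 1 FPKM in either library, 10.8% were 2-fold lower and 17.2% were 2-fold higher. In counts these were 1956 lower and 3124 higher loci, against 2426 and 2499 with the median ratio set to 0 and 2468 and 2377 after a correction for length and GC content, under which 32 and 23 of the 41 genes were lower. Most of the genes are abundant, so abundant loci were read beside them. Of 1492 loci with a mean of at least 100 FPKM, 18.6% were 2-fold lower and 16.9% were 2-fold higher. Of the 39 photosynthetic genes at that level 26 were lower. These 39 are among the 1492 loci and stand well above most of them, with a wild type median of 2249 FPKM against 176 FPKM. The median difference was -1.11 for the 41 genes, 0.21 for all loci and 0.02 for the abundant loci. The quartiles of the 41 differences were -1.32 and -0.90.

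The level of the 41 genes ran from 4.41 to 7194 FPKM in wild type, with a median of 2127 FPKM, and from 7.23 to 2879 FPKM in the Atclb1-1 library, with a median of 958 FPKM. Together they made up 10.7% of all FPKM in wild type and 5.13% in the Atclb1-1 library. Of the 100 loci with the highest values, 30 were photosynthetic genes of this set in wild type and 20 in the Atclb1-1 library. The order among them was nearly the same in both libraries, with a Pearson r of 0.97 and a Spearman rho of 0.97 across the 41 genes on the log2 scale. These genes share 2 libraries and are not independent replicates.

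**Figure D1:**
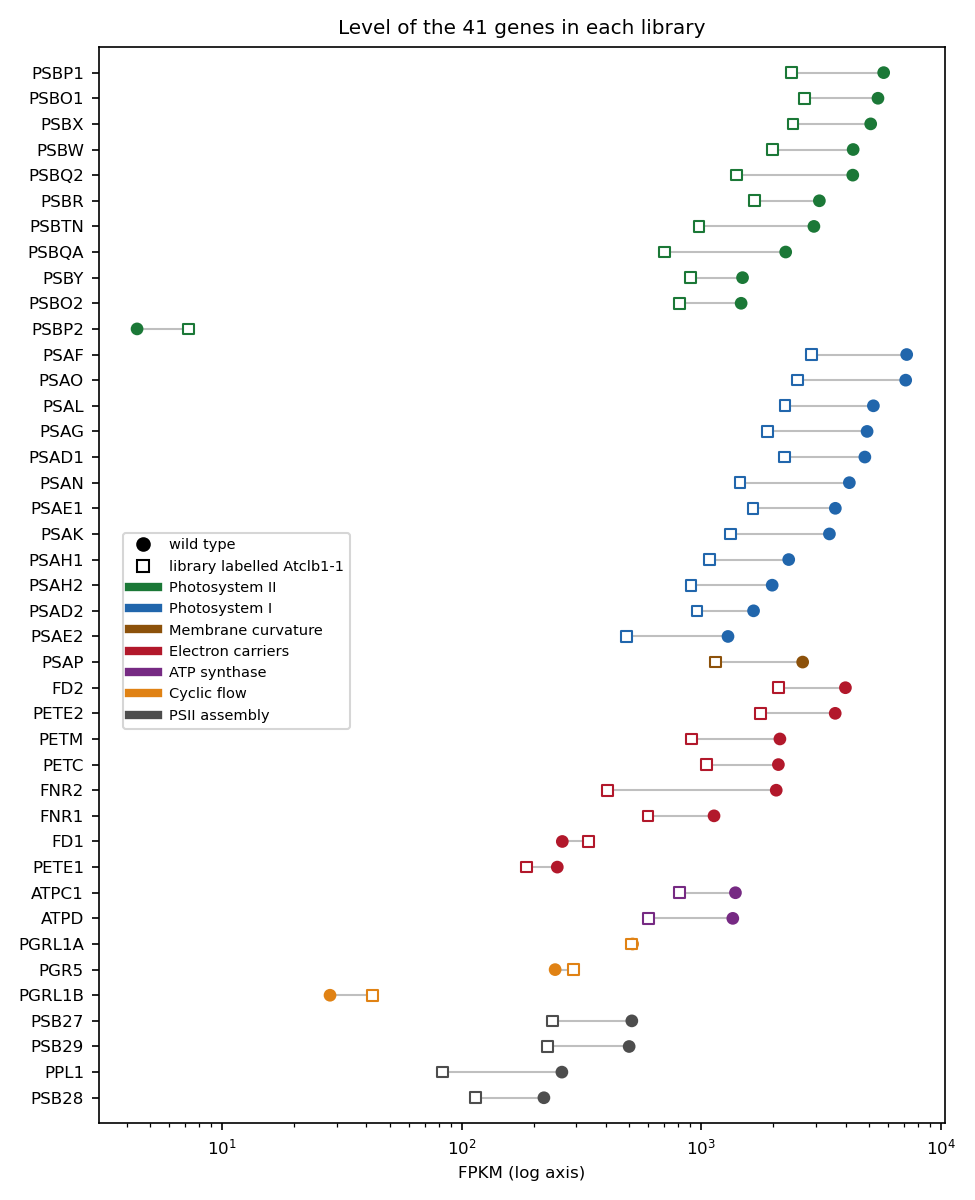
FPKM (log axis) of each of the 41 genes in the wild type library (filled circles) and in the library labelled Atclb1-1 (open squares), 1 library each, grouped by colour and ordered by wild type level within a group. The squares lie left of the circles for 37 genes, with those of PGRL1A nearly on each other, and PSBP2, FD1, PGR5 and PGRL1B have them to the right.

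The extrinsic PSII subunits PsbO, PsbP and PsbQ sit on the lumenal side and shield the manganese cluster that oxidises water. Of their 6 genes 4 were at least 2-fold lower. PSBO1 (AT5G66570), the main gene for the manganese-stabilising protein, had 5459 FPKM in wild type and 2688 in the Atclb1-1 library, a difference of -1.02. PSBO2 (AT3G50820), its second copy, had 1465 and 813 FPKM, 1.80-fold lower. Both PSBO genes thus lay close to the 2-fold line. PSBP1 (AT1G06680), for the subunit that helps retain calcium and chloride, had 5767 and 2379 FPKM, a difference of -1.28.

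Both PSBQ genes were more than 3-fold lower. PSBQA (AT4G21280) stood at 2249 FPKM in wild type and 701 in the Atclb1-1 library, 3.21-fold lower. PSBQ2 (AT4G05180) stood at 4285 and 1406 FPKM, 3.05-fold lower. PSBP2 (AT2G30790), the second PsbP gene, was by far the lowest of the 41 in wild type at 4.41 FPKM and was 7.23 FPKM in the Atclb1-1 library. PSBP2 overlaps AT2G30780 on the other strand, which had 3.08 and 5.20 FPKM, and reads of the pair cannot be told apart unless the counting used strand.

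The 5 small PSII subunits of the membrane and its lumenal face were all lower, 3 of them by at least 2-fold. PSBTN (AT3G21055), for the nuclear-encoded T subunit, had 2949 FPKM in wild type and 977 in the Atclb1-1 library, 3.02-fold lower. PSBW (AT2G30570), whose product stabilises the supercomplexes of PSII with its antenna, had 4301 and 1985 FPKM, 2.17-fold lower. PSBX (AT2G06520), for a small subunit near the quinone sites, had 5090 and 2413 FPKM, 2.11-fold lower. The other 2 did not reach 2-fold. PSBR (AT1G79040), whose product links the extrinsic subunits to the core, had 3108 and 1670 FPKM, 1.86-fold lower. PSBY (AT1G67740), for another small membrane subunit, had 1486 and 902 FPKM, 1.65-fold lower. Over all 11 PSII genes 7 were lower by 2-fold or more, the median being -1.08.

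Of the 3 larger groups the PSI genes lay closest together. All 12 were lower, 11 of them by at least 2-fold, with differences between -1.51 and -0.78 and a median of -1.27. On the stromal side, PsaD and PsaE form the docking site for ferredoxin. PSAD1 (AT4G02770) had 4813 FPKM in wild type and 2227 in the Atclb1-1 library, 2.16-fold lower. PSAD2 (AT1G03130), the second copy, had 1651 and 958 FPKM and was the PSI gene that did not reach 2-fold, at 1.72-fold. PSAE1 (AT4G28750) had 3624 and 1644 FPKM, 2.20-fold lower. PSAE2 (AT2G20260) was the least abundant PSI gene, at 1292 and 487 FPKM, 2.65-fold lower.

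All 8 genes for membrane and lumenal PSI subunits were at least 2-fold lower. PSAF (AT1G31330), whose product binds plastocyanin on the lumenal side, had the highest wild type level of the 41 genes, 7194 FPKM, against 2879 FPKM in the Atclb1-1 library, 2.50-fold lower. PSAN (AT5G64040), for a lumenal subunit of the same docking site, had 4147 and 1452 FPKM, 2.86-fold lower. PSAN thus had the largest difference of the PSI genes. PSAG (AT1G55670), on the side of the light-harvesting antenna of PSI, had 4917 and 1891 FPKM, 2.60-fold lower. PSAK (AT1G30380), a relative of PSAG at the other end of that antenna, had 3424 and 1323 FPKM, 2.59-fold lower. On the log2 scale the related genes PSAG and PSAK differed by -1.38 and -1.37.

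PsaH, PsaL and PsaO lie on the opposite side of PSI, where the mobile antenna of PSII can dock during state transitions. PSAO (AT1G08380) had 7126 FPKM in wild type and 2519 in the Atclb1-1 library, 2.83-fold lower. PSAL (AT4G12800) had 5224 and 2235 FPKM, 2.34-fold lower. The PsaH genes were again close to each other. PSAH1 (AT3G16140) had 2315 and 1081 FPKM, 2.14-fold lower, and PSAH2 (AT1G52230) had 1975 and 905 FPKM, 2.18-fold lower. PSAP (AT2G46820), first described as a PSI subunit and now known as CURT1B of the proteins that bend grana margins, had 2647 and 1149 FPKM, 2.30-fold lower.

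**Figure D2:**
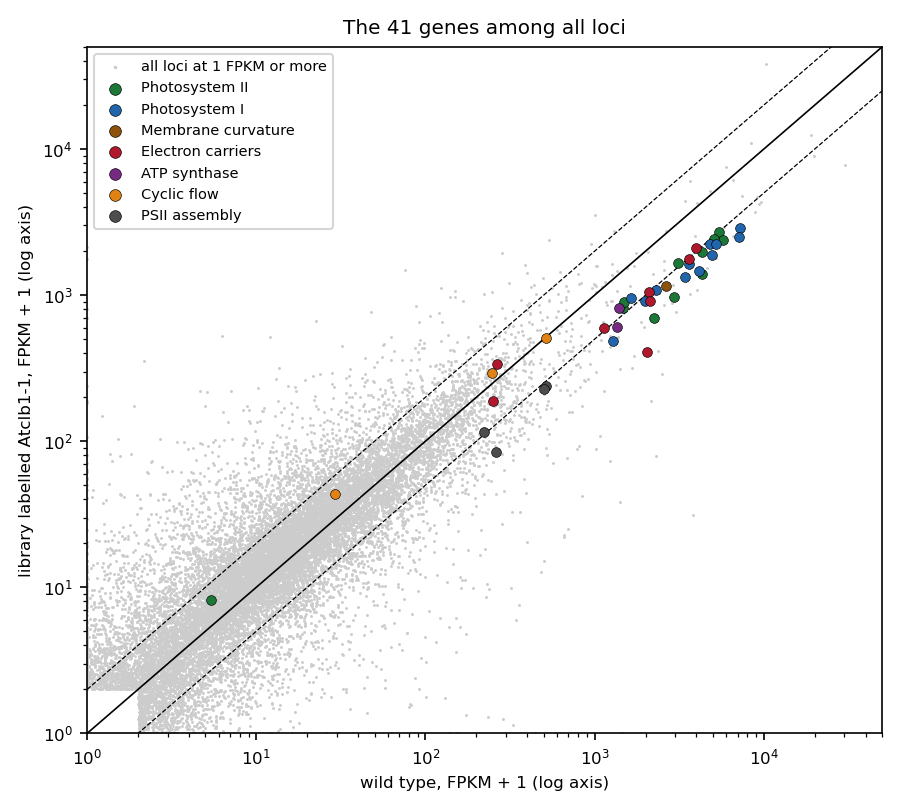
FPKM + 1 of every locus that reached 1 FPKM in either library (grey) and of the 41 genes (coloured by group), wild type on the horizontal and the library labelled Atclb1-1 on the vertical axis, both log axes. The solid line marks equal values and the dashed lines 2-fold differences; the PSI genes sit in a narrow band near or below the lower dashed line, and FNR2 lies farthest below it.

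The electron carriers spread most widely, from -2.34 to 0.36, with 3 of 8 at least 2-fold lower and a median of -0.96. In the cytochrome b6f complex, PETC (AT4G03280), the Rieske iron-sulphur protein gene, had 2096 FPKM in wild type and 1053 in the Atclb1-1 library. Its difference of -0.99 lay just short of the 2-fold line. PETM (AT2G26500), annotated as a small subunit of the complex, had 2127 and 911 FPKM, 2.34-fold lower. Plastocyanin, the copper protein between cytochrome b6f and PSI, has a pair of genes. PETE2 (AT1G20340), the main one, had 3620 and 1767 FPKM, 2.05-fold lower, and PETE1 (AT1G76100) had 250 and 186 FPKM, 1.34-fold lower.

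At the acceptor side of PSI the gene pairs parted. FD2 (AT1G60950), the main leaf ferredoxin gene, had 3993 FPKM in wild type and 2098 in the Atclb1-1 library, 1.90-fold lower. FD1 (AT1G10960), the minor leaf ferredoxin gene, had 263 and 337 FPKM, with a ratio of 1.28. FD1 overlaps AT1G10950 on the same strand, which stood at 48.7 and 48.8 FPKM. FNR1 (AT5G66190) and FNR2 (AT1G20020) encode the leaf enzymes that reduce NADP+ with ferredoxin. FNR1 had 1129 and 599 FPKM, 1.89-fold lower. FNR2 had 2053 and 405 FPKM, 5.07-fold lower, the largest difference among the 41 genes. FNR2 spans chr1:6942625-6945091 on the plus strand in TAIR10.1 and overlaps no other annotated gene.

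Of the nuclear ATP synthase genes, ATPC1 (AT4G04640), for the gamma subunit that rotates within the enzyme, had 1387 FPKM in wild type and 811 in the Atclb1-1 library, 1.71-fold lower. ATPD (AT4G09650), for the delta subunit of the stator, had 1353 and 603 FPKM, 2.24-fold lower. Their levels were alike in wild type and stood apart in the Atclb1-1 library.

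Of the 3 genes for cyclic flow 0 reached 2-fold in either direction, and their median difference was 0.26. PGR5 (AT2G05620), needed for the antimycin-sensitive route from ferredoxin back to plastoquinone, had 245 FPKM in wild type and 293 in the Atclb1-1 library. PGRL1A (AT4G22890), for its membrane partner, had 516 and 510 FPKM. PGRL1B (AT4G11960), the second PGRL1 gene, had 28.2 and 42.5 FPKM. The difference of PGRL1A, -0.02, was 0.08 when both libraries were set to the same nuclear total. Whether these 3 genes differ from the others beyond the spread between plants was not tested.

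All 4 PSII assembly genes were lower, 3 of them by at least 2-fold. PPL1 (AT3G55330), for a PsbP-like protein used in the repair of photodamaged PSII, had 262 FPKM in wild type and 83 in the Atclb1-1 library, 3.15-fold lower. PSB27 (AT1G03600), for a lumenal factor of PSII assembly and repair, had 513 and 239 FPKM, 2.15-fold lower. PSB29 (AT2G20890), also called THF1 and needed for normal thylakoid formation, had 500 and 228 FPKM, 2.19-fold lower. PSB28 (AT4G28660), a factor bound to assembling PSII in cyanobacteria, had 220 and 114 FPKM, 1.93-fold lower. All 4 stood well under the median wild type level of the whole set, and their median difference was -1.11.

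The difference went with level across the whole set but not among the abundant genes. Over the 41 genes its Pearson r with the mean log2 level was -0.64 and its Spearman rho -0.41. Among the 31 genes at 1000 FPKM or more in wild type these were -0.02 and -0.16. All 31 were lower, by 1.65-fold to 5.07-fold, and 23 of them by at least 2-fold. Of the 10 genes under 1000 FPKM, 3 were at least 2-fold lower. The line at 1000 FPKM was drawn on the wild type value, which lowers the difference where it is high. The share of all loci past that line was not taken, so no conclusion is drawn from these counts. For transcript length rho was 0.22 and for GC content 0.05 over the 41. These are descriptions across genes of the same 2 libraries, and level is a term of the difference itself.

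In 10 cases the set holds a pair of genes for the same protein, and how a pair's summed FPKM was divided between them was compared. The coding sequences of the pairs are 75 to 88.0% identical, and in 9 pairs the longest annotated transcripts share no stretch of 36 bases. In 8 pairs the share of the first gene moved by less than 5 percentage points. PSBO1 held 78.8% of the PSBO sum in wild type and 76.8% in the Atclb1-1 library, PSAH1 held 54.0 and 54.4% of the PSAH sum, and PSBQA held 34.4 and 33.3% of the PSBQ sum. In these pairs both copies were lower by similar factors.

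PSAD1 held 74.5 and 69.9% of its pair, PSAE1 73.7 and 77.2%, and PETE1 6.47 and 9.54%. PSBP1 held nearly all of its pair in both libraries, at 99.9 and 99.7%, and PGRL1A held 94.8 and 92.3%. Where 1 copy holds nearly all of the sum, the share can hardly move even if the copies part. The 2 log2 differences lay farthest apart for the PSBP pair, by 1.88, with PSBP2 at 4.41 FPKM in wild type. The gap was 1.42 for FNR, 1.29 for FD, 0.61 for PETE and 0.60 for PGRL1. The 2 pairs with larger shifts of the share are those at the acceptor side of PSI. FD1 held 6.18% of the ferredoxin sum in wild type and 13.9% in the Atclb1-1 library. FNR1 held 35.5% of the FNR sum in wild type and 59.6% in the Atclb1-1 library, so the order of FNR1 and FNR2 was opposite in the 2 libraries. In 7 of the 10 pairs the copy that was lower in wild type had the smaller decrease or an increase. The wild type level that sorts the copies is itself a term of the difference, so no conclusion is drawn from this count. With 1 library per genotype, whether any of these shifts exceeds the spread between plants was not tested.

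**Figure D3:**
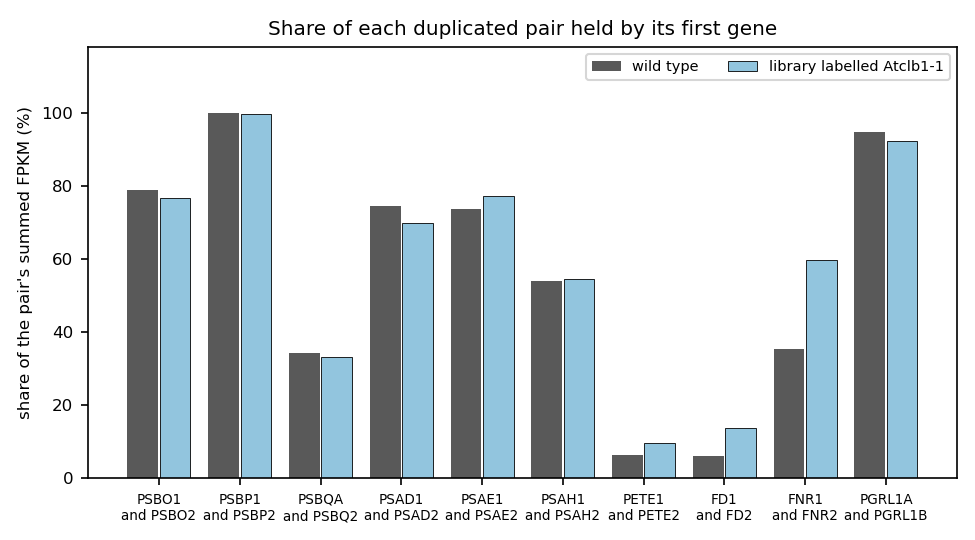
Share (%) of the summed FPKM of each of 10 gene pairs that the first-named gene held in the wild type library (dark bars) and in the library labelled Atclb1-1 (light bars), with bars starting at 0. The bars of a pair are nearly equal except for FD1, at 6.18 and 13.9%, and FNR1, at 35.5 and 59.6%. The share can hardly move where 1 copy holds nearly all of the sum, as in the PSBP pair, whose log2 differences lay farthest apart, by 1.88.

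The genes lie on all 5 nuclear chromosomes, 15 on chromosome 1, 8 on chromosome 2, 4 on chromosome 3, 11 on chromosome 4 and 3 on chromosome 5. Of the 41, 13 overlap another annotated gene. Among the 28 that overlap none, 18 were lower by 2-fold or more, and the median was -1.11. In 20 of the genes the 250 bases before the start also overlap another annotated gene.

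The motifs capitalised in the printed promoters were counted in all 41 windows and in the windows of the same length of 27443 nuclear genes, of which 1458 were abundant loci. Either strand counted, the G-box reads the same on both, and none of the motifs contains another. The G-box, bound by bZIP and bHLH factors of light signalling, was in 8 of 41 windows (19.5%), against 6.49% of all windows and 9.19% of those of abundant loci. The I-box core, known from promoters of light-regulated genes, was in 10 (24.4%), against 12.3 and 15.8%. These are the motifs that were more frequent in the set than in both comparison groups by a margin of several percentage points. Among the windows with a G-box, only those of PSBQ2 and PSB28 overlap no other annotated gene. Among those with the I-box core, the windows of PSBP2, PSAH2, PETE2 and FNR1 overlap another annotated gene. CCAATC, known from promoters of spinach photosynthesis genes, was in 5 windows (12.2%), against 10.2 and 11.9%.

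The clock motifs were rare. The evening element was in 1 window (2.44%), that of ATPC1, against 2.36% of all windows and 4.53% of those of abundant loci. The CCA1-binding site was in 3 (7.32%), those of PSAN, PSAO and PGRL1A, against 6.69 and 7.48%. The TATA box core was in 19 (46.3%), against 47.3 and 44.4%. A match says only that these letters lie in the window.

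Of the 8 genes with a G-box, PSBP2, PSBQA, PSBQ2, PSBTN, PSAE2, PSAH2, ATPD and PSB28, 6 were lower by 2-fold or more, and the median of the 8 was -1.29. Of the other 33 genes 20 were lower, around a median of -1.10. For the I-box core the medians were -1.07 with and -1.12 without it, and for CCAATC -1.10 and -1.11. Of the 19 genes with the TATA box core 15 were lower, with a median of -1.14, and of the 22 without it 11, with a median of -1.05. The 3 genes with the CCA1-binding site had a median of -1.50, and the other 38 had -1.11. None of these differences within the set was tested. In the printed promoters, counting the base before the gene start as -1, FNR2 has the TATA box core at -209, -175 and -45, the second of them on the other strand. PSBQ2 has G-boxes at -145 and -77, the I-box core at -15 and CCAATC at -246 on the other strand. PETC has the I-box core at -184 and CCAATC at -95, both on the other strand. PGRL1A has the CCA1-binding site at -200.

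Other nuclear genes of the photosynthetic machinery were compared by lists, each described by its count and median beside the background of 10.8% lower and 17.2% higher. Of 20 light-harvesting antenna genes 12 were lower by 2-fold or more and 0 higher, and the median was -1.16. In that list LHB1B1 (AT2G34430), one of several near-identical LHCB1 copies among which reads may be divided, had 2487 FPKM in wild type and 287 in the Atclb1-1 library. Others far apart were LHCB4.3 at 250 and 70.9 FPKM, LHCB6 at 5253 and 1802 FPKM, and Lhca6 at 181 and 62.5 FPKM. The last links PSI to the NDH complex. Of 18 Calvin cycle genes 8 were lower and 0 higher, with a median of -0.93. Among those farthest apart were RBCS1B, RBCS2B and RBCS3B, at 823 and 234, 1107 and 412, and 2894 and 1182 FPKM. These are Rubisco small subunit genes so alike that reads may be divided among them. GAPA-2 (AT1G12900), for a chloroplast glyceraldehyde-3-phosphate dehydrogenase subunit, had 1886 and 658 FPKM, next in difference to RBCS1B.

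The nuclear subunits of the chloroplast NDH complex, the second route of cyclic flow around PSI, had 11 of 17 genes lower by 2-fold or more and 0 higher, and the median was -1.24. PnsB3 (AT3G16250) had 132 FPKM in wild type and 17.7 in the Atclb1-1 library, 7.46-fold lower. PnsL3 (AT3G01440), a PsbQ-like protein gene, had 68.6 and 13.7 FPKM, a difference of -2.24. PnsL4 (AT4G39710) had 193 and 49.4 FPKM, and PnsB4 (AT1G18730) had 337 and 100.8 FPKM. The PGR5 and PGRL1 genes had a median of 0.26 in the same libraries, and the difference between the routes was not tested.

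Of 17 other genes for PSII assembly and repair 4 were lower by 2-fold or more and 1 higher, and the median was -0.64. LPA2 (AT5G51545) had 60.3 and 18.1 FPKM, LPA19 (AT1G05385) 56.9 and 17.8 FPKM, and CYP38 (AT3G01480), a lumenal cyclophilin gene, 179 and 61.8 FPKM. FTSH8 (AT1G06430), for a subunit of the thylakoid protease that degrades damaged D1 protein, was the one that was higher, at 120 and 335 FPKM. Of 5 PSI assembly genes 1 was at least 2-fold lower, PPD1 (AT4G15510) at 64.4 and 20.5 FPKM, with a median of -0.83. Of 6 further PsbP-domain genes 4 were lower, with a median of -1.12. These were AT2G28605 at 51.8 and 20.8 FPKM, PPD6 (AT3G56650) at 79.7 and 33.9 FPKM, AT1G76450 at 46.4 and 19.6 FPKM, and PPD5 (AT5G11450) at 130 and 63.1 FPKM.

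Of 11 other electron transport genes 3 were lower by 2-fold or more and 0 higher, and the median was -0.55. CYTC6A (AT5G45040), for a lumenal cytochrome, had 8.87 FPKM in wild type and 1.72 in the Atclb1-1 library. FdC2 (AT1G32550), for a ferredoxin with an extended C terminus, had 99.3 and 32.5 FPKM. Tic62 (AT3G18890), which anchors FNR at the thylakoid, had 119 and 46.6 FPKM. FdC1 (AT4G14890), the other ferredoxin of that type, had 190 and 108 FPKM. Among 7 thylakoid kinase, phosphatase and curvature genes 2 were lower by 2-fold or more, and the median was -0.79. CURT1A (AT4G01150) had 1953 and 604 FPKM, and CURT1C (AT1G52220) had 388 and 143 FPKM. With CURT1B, 3 curvature genes were thus at least 2-fold lower. AT4G38100, the other curvature gene of that list, was not lower, at 35.2 and 42.3 FPKM. TAP38 (AT4G27800), the phosphatase that acts on the PSII antenna in state transitions, had 318 and 167 FPKM, and STN8 (AT5G01920), the kinase of PSII core proteins, had 32.0 and 18.1 FPKM.

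**Figure D4:**
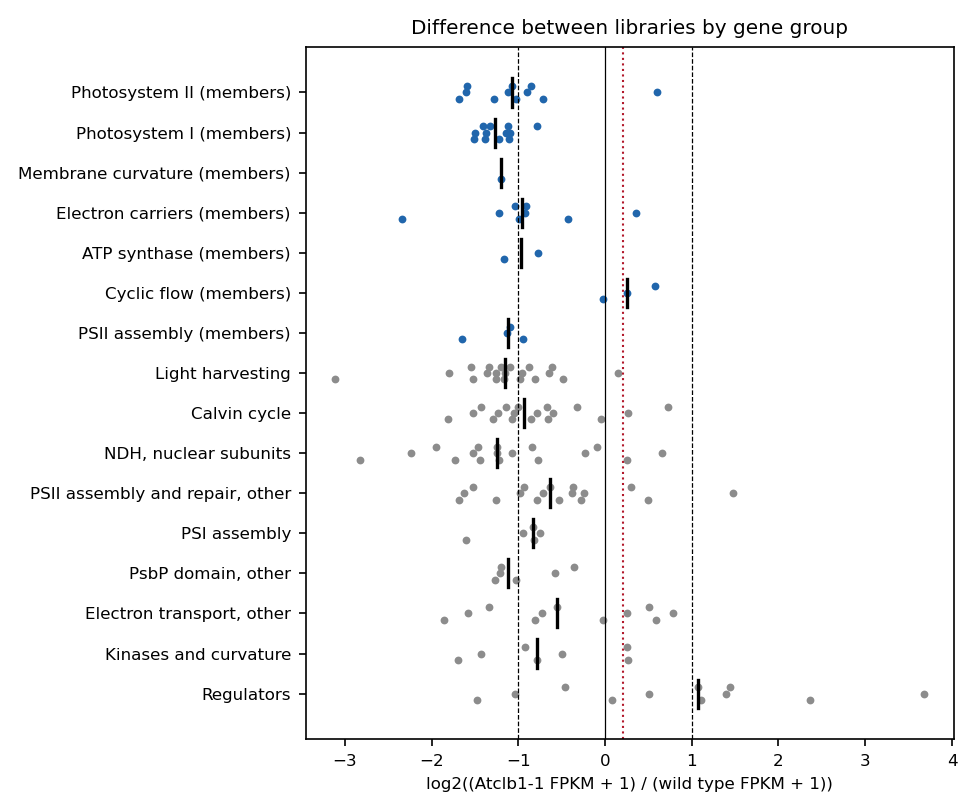
Difference between the libraries, log2((Atclb1-1 FPKM + 1)/(wild type FPKM + 1)), for each gene of the 41 by group (blue) and of 9 further lists (grey), with short black bars at the group medians. Dashed lines mark 2-fold differences and the red dotted line the median of all loci, 0.21; the PSI median lies at -1.27, the cyclic flow median at 0.26 and the regulator median at 1.07.

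Plastid identifiers (ATCG) listed for the plastid-encoded subunits of the same complexes lay on both sides of 0. Of 32 such loci 24 lay above 0 in both libraries, and of these 2 were 2-fold or more lower and 2 higher, with 15 above 0 by some amount and differences from -1.11 to 1.06 around a median of 0.36. Over all 30 that reached 1 FPKM in either library, those at 0 in 1 library included, 3 were lower by that margin and 7 higher. Of these 30, 6 were listed at 0 in 1 library, and the remaining 2 of the 32 loci were listed at 0 in both. The loci farthest apart are among these 6, namely ATCG00080 with 0 and 238 FPKM, ATCG00690 with 0 and 186 FPKM, ATCG00220 with 139 and 0 FPKM, and ATCG00570 with 0 and 106 FPKM. These identifiers carry no names or lengths in the annotation used, and the sources used here do not state how messenger RNA was selected. Their FPKM are therefore not set beside the levels of the nuclear genes.

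Of 11 known regulators of chloroplast genes 6 were 2-fold or more higher and 2 lower, and their median was 1.07. SIGE (AT5G24120), sigma factor 5 of the plastid RNA polymerase, had 16.1 FPKM in wild type and 219 in the Atclb1-1 library. CGA1 (AT4G26150), a GATA factor that promotes chloroplast development, had 2.07 and 14.8 FPKM. GLK2 (AT5G44190), an activator of nuclear photosynthesis genes, had 49.2 and 135 FPKM. SIG4 (AT5G13730), sigma factor 4, was lower, at 45.4 and 15.7 FPKM.

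Other values moved with the same pair of libraries. The clock genes CCA1 and LHY, which peak around dawn, had 7.39 and 3.41 FPKM in wild type and 162 and 74.0 FPKM in the Atclb1-1 library, and ELF4, which peaks in the evening, had 343 and 4.95 FPKM. GI, another evening gene, had 61.9 and 34.0 FPKM. SAG13, a senescence-associated gene, had 122 and 1124 FPKM, and SAG12 was listed at 0 in wild type and had 45.4 FPKM. The clock and senescence genes were chosen after their values were seen. Many photosynthesis genes are under clock control and decline in ageing leaves, and the part of either in the differences was not tested.

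The markers of leaf mesophyll, in which the 41 genes are mainly active, were checked. Of 6 mesophyll markers 5 were at least 2-fold lower, and the sixth, RCA for Rubisco activase, had 3643 and 6038 FPKM. Their summed level was 31149 FPKM in wild type and 17711 in the Atclb1-1 library. The 4 Rubisco genes and RCA are in the Calvin cycle list too, so these checks overlap. In bulk RNA, fewer mesophyll cells and less of these RNAs per cell cannot be told apart. Guard cell markers (2 of 4 lower, 1 higher) summed to 185 and 77.3 FPKM, but to 41.03 and 45.48 FPKM without AT1G22690, left out after its values were seen. Sums were 483 and 302 FPKM for phloem companion cell markers (1 of 3 lower) and 46.1 and 23.1 FPKM for xylem markers (2 of 3 lower). Epidermis and trichome markers (1 of 2 measured lower) summed to 9.81 and 5.10 FPKM with MYB0 listed at 0 in both. Root markers (0 of 3 measured past 2-fold) summed to 32.0 and 35.5 FPKM with SMB and MYB36 listed at 0 in both. A 6-gene root list with AGP31, which had 3.53 and 0.0956 FPKM, summed to 35.5 FPKM in both. The part of cell composition in the differences was not tested. Of 6 reference genes 0 differed by 2-fold, with differences from -0.40 to 0.64.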

How the data were processed

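RNA from leaves of 1 wild type and 1 Atclb1-1 sample was sequenced on an Illumina Genome Analyzer from strand-marking libraries, per the labels' protocols. The values are FPKM as deposited by the authors, named so per the file headers. The submitters' processing notes name TopHat 1.3.2, Cuffdiff and the TAIR10 build, with parameters, filters and use of strand not given in the sources used here. Since FPKM is relative to the library's total, a large difference in abundant loci moves every other value. Read counts were not analysed here, so no counting interval is given.

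Differences used a pseudocount of 1, which understates those of low genes, a 2-fold threshold, and loci that reached 1 FPKM in either library. The steps of low values gave the relative depth (251 of 2434 loci below 1 FPKM in both libraries at a ratio of 0.826). Coordinates, lengths and promoters came from TAIR10.1 (RefSeq), which matched 32810 of the 33557 loci. The nuclear chromosome sequences of TAIR10 and TAIR10.1 are the same. All 41 genes are named, and from other lists up to 4 with the largest difference. AT4G38100 was named in addition, with its values known. The genes, lists and motifs were chosen with earlier results of these data known. Calculations used Python 3.11.15, pandas 2.3.3 and numpy 2.4.6 and were tested on simulated data. Alternatives changed the pseudocount, filter, scaling, threshold and a correction for length and GC content.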

Additional observations from a re-analysis of the deposited data

How the results depend on the processing

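The 26 genes at least 2-fold lower were 26 with a pseudocount of 0.1 or 5, without a filter and with a filter at 5 FPKM. The count was 32 with the median ratio of 11724 loci set to 0 (a shift of 0.21), 21 with equal nuclear totals, 23 after correction for length and GC content, 35 at 1.5-fold and 5 at 3-fold. Over all loci the lower count was 1956, and in the same order 2426, 1766, 2468, 3453 and 834, with 3124 higher, and 2499, 3567, 2377, 5601 and 1504. A pseudocount of 0.1 gave 2470 lower and 3774 higher loci, and a pseudocount of 5 gave 1058 and 1774. The filter at 5 FPKM gave 1518 and 2546, and leaving out the filter gave 1956 and 3124. The background thus moved under settings that left the count of 26 unchanged. At 1.5-fold 1 gene, PSBP2, was higher. With the median ratio set to 0 the medians were -1.32 for the 41 genes, -1.28 for PSII, -1.48 for PSI and -1.17 for the carriers. With equal nuclear totals they were -1.01, -0.97, -1.17 and -0.86. The mean of the 41 differences was -0.996. Both scalings shift all genes nearly alike by construction. Equal nuclear totals took PSBO1, PSBX, PSAH1, PETE2 and PSB27 short of 2-fold, and the correction did so for PSBX, PSAD1 and PSAE1. With the median ratio set to 0, PSBO2, PSBR, PETC, FD2, FNR1 and PSB28 passed 2-fold. PGRL1A alone among the 41 changed sign, with equal nuclear totals. The comparison of abundant loci and of genes without overlap was added after the data had been seen. No paired analysis was possible because each genotype has 1 library. Depth limits PSBP2, whose values imply roughly 64 to 69 reads in wild type and 122 to 133 in the Atclb1-1 library.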
